A study of Danio rerio with 2 samples.

Results

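Enterocytes are the absorptive cells that line the intestine. Their apical face is a brush border of microvilli that carries digestive enzymes, and beneath it absorbed fat, retinol and peptides are bound, re-esterified or passed on to the blood. In the zebrafish larva the gut becomes functional as the yolk runs out. A stretch of its epithelium is specialised for taking up whole proteins by endocytosis, and goblet cells among the enterocytes secrete mucus. The genes described here were the rows of the expression table whose symbol is exactly that of a listed intestinal gene. Of 10 listed symbols 7 were present, among 27458 symbols in all: the brush border enzymes SI and anpepb, the fat and retinol absorption genes mogat2 and rbp2a, the endocytic receptor cubn, the transcription factor gene cdx1b and the secretory gene agr2. The other 3 were looked up under other spellings. The current RefSeq name vil1 has the synonym vil1l and alpi.1 the synonym alpi, both of which are in the table, and amn appears there in capitals as AMN. These 3 loci are described beside the members and were kept out of the member counts.

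RNA was sequenced from 2 libraries, each made from 20 whole zebrafish larvae pooled at 5 days post-fertilization. One pool was of animals homozygous for lri12, a mutation whose gene the labels do not name, so no targeted gene could be checked. The other was of wild-type larvae from the same clutch. The deposited values were taken as FPKM, a measure scaled by transcript length and library size, so levels can be compared between genes. With 1 pool a genotype, every difference below is between 2 libraries, with no replicate spread and no test of genotype. RNA of whole bodies cannot tell fewer cells of a type from less RNA per cell. Differences are mutant minus wild type in log2(FPKM + 1), and folds are on that scale, on which low genes appear less different than they are. Pairs of values give wild type first and the mutant second.

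The members did not all differ in the same direction. SI, anpepb, mogat2 and rbp2a, 4 of the 7, each differed by 1.5-fold or more, all downward in the mutant. The other 3, cubn, cdx1b and agr2, lay within 1.5-fold, cubn lower and cdx1b and agr2 higher. Not every listed absorption or brush border gene was thus 1.5-fold lower. The endocytic receptor gene cubn was at 68.5% of its wild-type level, beside 62.2% for mogat2. Outside the members, vil1l was at 82.5%, AMN at 81.2% and alpi at 112%. Of 18664 genes whose mean reached 1 FPKM, 313 (1.68%) were at least 1.5-fold lower and 150 (0.804%) at least 1.5-fold higher. At the 2-fold limit 1 of the 7 members, SI, was lower and 0 were higher, beside 82 genes (0.439%) lower and 54 (0.289%) higher among all. Only 6 of the 7 members, all but cubn, reached a mean of 1 FPKM, so the 2 sets of counts are not filtered alike. The median log2 difference of all genes was 0.004, and their 5th and 95th percentiles were -0.33 and 0.28. All 7 members stand on different chromosomes, and each is a single locus in the table. Markers that define enterocytes were present in both pools: vil1l, SI, anpepb, alpi, mogat2, slc15a1b and the fatty acid binding protein gene fabp2. They ranged from 6.53 to 660 FPKM in wild type and from 7.30 to 371 FPKM in the mutant. Presence does not mean equal level. The members SI, anpepb and mogat2 were at least 1.5-fold lower, as were slc15a1b (1.91-fold) and fabp2 (1.78-fold). Of the others, vil1l was 1.21-fold lower and alpi 1.1-fold higher.

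**Figure D1:**
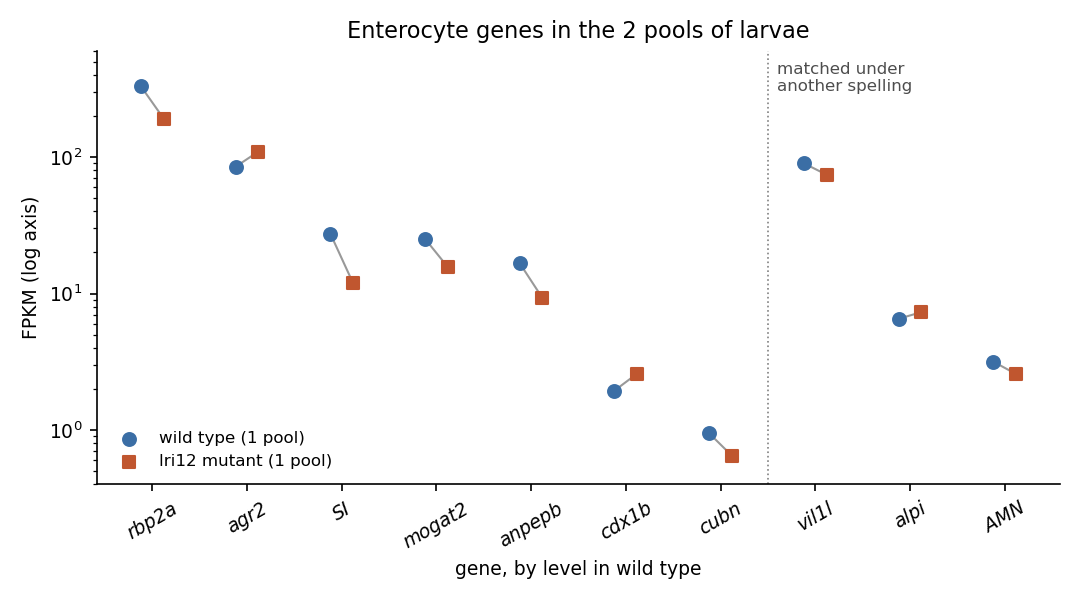
FPKM on a log axis for the 7 members and, right of the dotted line, the 3 listed genes matched under another spelling, with a circle for the wild-type pool and a square for the mutant pool. The squares of rbp2a, SI, mogat2, anpepb and cubn lie under their circles, those of agr2 and cdx1b lie over them, and vil1l, AMN and alpi differ little.

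SI encodes sucrase-isomaltase, the brush border enzyme that splits sucrose and the branched ends of starch. It had 27.4 FPKM in the wild-type pool and 11.9 FPKM in the mutant pool, 43.4% of the wild-type level. The log2 difference was -1.14 (2.2-fold lower), and 52 of the 18664 genes lay further down. With a pseudocount of 5 in place of 1 it was -0.94, short of 2-fold. The locus (chromosome 18, 2814010 to 2937343 on build Zv9) is shared with no other gene model. In the authors' deposited table SI had a p-value of 5e-05 and a q-value of 0.017, the only q under 0.05 among the 7 members, beside 109 loci with such a q in the whole table. The same p and q were given for other genes described below, among them mep1a.2, mep1b, xpnpep2, fabp6, ctsl.1 and nr5a5. These values therefore do not rank SI above those genes. That p rests on 1 pool against 1 pool and does not measure variation between clutches.

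The gene anpepb encodes an aminopeptidase N, a brush border enzyme that removes single amino acids from the ends of peptides. It had 16.6 FPKM in the wild-type pool and 9.25 FPKM in the mutant pool, a log2 difference of -0.78 (1.72-fold lower). Its locus (chromosome 25, 11024619 to 11455665) is shared with 13 other gene models, among them the related ANPEP (2 of 5) and ANPEP (3 of 5). These neighbours were nearly level, at 5.71 and 5.63 FPKM for the former and 4.85 and 4.67 FPKM for the latter. How reads were divided between such similar copies is not known. A further relative, anpepa, was at 7.23 and 4.97 FPKM, within 1.5-fold. In the authors' deposited table anpepb had a p-value of 0.019 and a q-value of 0.999.

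Fat absorption was represented by mogat2, a monoacylglycerol acyltransferase that rebuilds diglyceride from absorbed monoglyceride. It had 25.1 FPKM in the wild-type pool and 15.6 FPKM in the mutant pool, a log2 difference of -0.65 (1.57-fold lower). It lay just past the 1.5-fold limit, with 248 genes further down, and at -0.55 with a pseudocount of 5 it lay inside it. Its relatives mogat3a and mogat3b stayed within 1.1-fold, at 19.9 and 18.0 FPKM and at 10.6 and 10.2 FPKM. A further acyltransferase gene of the same family, dgat2, which ends just before mogat2 on chromosome 10, was as low as mogat2, at 37.6 and 23.4 FPKM (1.58-fold lower). The span of mogat2 (chromosome 10, 33481061 to 33565567) is shared with MAP6 (1 of 2), which stood at 4.58 and 4.36 FPKM. In the authors' deposited table mogat2 had a p-value of 0.025 and a q-value of 0.999.

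The most abundant member was rbp2a, a cellular retinol-binding protein of the kind that holds absorbed vitamin A inside the enterocyte. It had 329 FPKM in the wild-type pool and 191 FPKM in the mutant pool, a log2 difference of -0.78 (1.72-fold lower). Its high level leaves this value almost free of the pseudocount. The locus (chromosome 15, 5697321 to 5708818) is not shared with another model. Of its family, the joined locus of rbp1b and rbp2b was at 72.0 and 61.6 FPKM, rbp1a at 30.2 and 29.3 FPKM and the joined locus of nmnat1 and rbp7 at 20.7 and 16.2 FPKM. These 3 loci lay within 1.5-fold and rbp2a did not. In the authors' deposited table rbp2a had a p-value of 0.00365 and a q-value of 0.472.

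**Figure D2:**
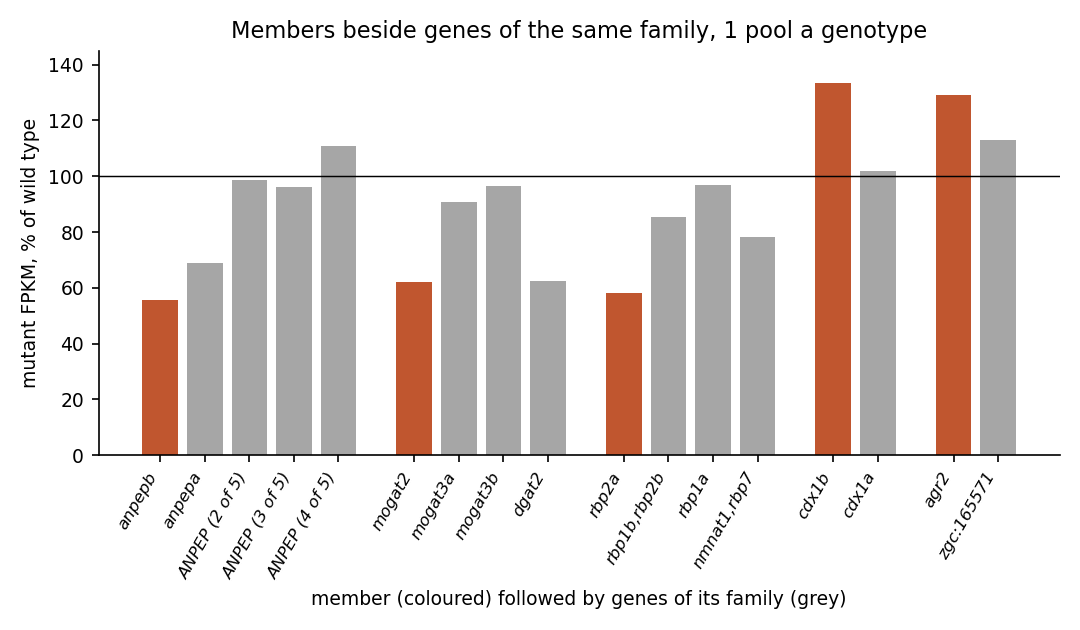
The mutant level as a percent of the wild-type level, with 100 marked by a line, for 5 members (coloured) and genes of their families (grey), which were picked after the values were seen from lists that hold them. The bars of anpepb, mogat2 and rbp2a reach 55.6%, 62.2% and 58.1%, dgat2 reaches 62.3%, the other grey bars of these 3 families reach 68.7% or more, and those of cdx1b and agr2 reach 133% and 129%.

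Protein uptake in larval enterocytes and in kidney tubules uses cubilin, a large endocytic receptor, held at the membrane by amnionless. The cubilin gene cubn was the lowest member, with 0.946 FPKM in the wild-type pool and 0.648 FPKM in the mutant pool. Its mean was below 1 FPKM, so it did not enter the comparison with all genes, and its log2 difference of -0.24 (1.18-fold lower) rests on little signal. The plain ratio was 0.685, and with a pseudocount of 0.1 the log2 difference was -0.48. The locus (chromosome 24, 33248644 to 33318389) is not shared. In the authors' deposited table its p-value was 0.117 and its q-value 0.999. The partner gene AMN was at 3.17 and 2.57 FPKM, 81.2% of wild type and a log2 difference of -0.22, in a span (chromosome 3, 57570009 to 57636650) shared with 4 other models. AMN lay between the 5th and 95th percentiles of all genes.

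Cubilin and amnionless are also made by the pronephros, the larval kidney. Of 17 pronephros genes above the same limit of level, 0 passed 1.5-fold either way, and their median log2 difference was -0.05. Their summed level was 162 FPKM in the wild-type pool and 152 FPKM in the mutant pool, and 0 of them were at 0. The most abundant, cdh17, at 40.3 and 35.3 FPKM, also stands in the list of epithelial junction genes below. The median of these pronephros genes is therefore not that of kidney alone. The lowest was the monocarboxylate transporter gene slc5a12, at 5.54 and 3.39 FPKM (1.49-fold lower), which with a pseudocount of 0.1 passed 1.5-fold at -0.69, and the highest was the podocyte factor gene wt1b, at 1.39 and 2.01 FPKM. The part of either tissue in the values of cubn and AMN was not tested.

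The fate gene cdx1b, a caudal-type homeobox factor that in zebrafish takes part in the differentiation of gut epithelium, was not lower. It had 1.94 FPKM in the wild-type pool and 2.59 FPKM in the mutant pool, a log2 difference of 0.29 (1.22-fold higher). Its relative cdx1a was level, at 6.22 and 6.33 FPKM. Among the genes compared, 904 lay further up, and cdx1b lay just above the 95th percentile of all genes. Low expression limits what can be read from cdx1b, and its p-value in the authors' deposited table was 0.154. The locus (chromosome 21, 42527976 to 42543419) is not shared.

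The gene agr2 encodes a protein disulfide isomerase of the endoplasmic reticulum that goblet cells need, in mice, to make mucin. It had 84.9 FPKM in the wild-type pool and 110 FPKM in the mutant pool, a log2 difference of 0.36 (1.29-fold higher), with 489 genes further up. This was the highest difference among the members, and it lay above the 95th percentile of all genes. In the authors' deposited table its p-value was 0.149 and its q-value 0.999. A related gene, zgc:165571, which RefSeq lists as a synonym of agr1, was at 122 and 138 FPKM (1.13-fold higher). The locus of agr2 (chromosome 19, 31646941 to 31649494) is not shared. Mucus is also made outside the gut, as in the larval skin, and the share of other tissues in agr2 was not tested.

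**Figure D3:**
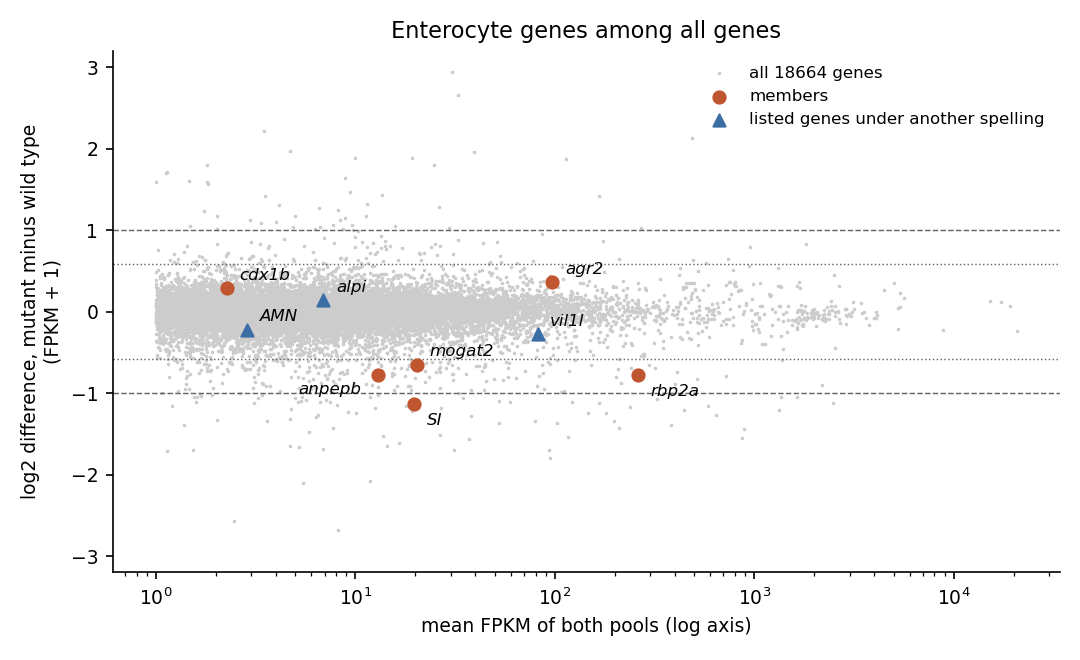
Log2 difference of mutant minus wild type (FPKM + 1) against the mean FPKM of both pools (log axis) for all 18664 genes in grey, with the members as circles and the listed genes under another spelling as triangles. Dotted lines mark 1.5-fold and dashed lines 2-fold, and 7 genes lie outside the plotted range. SI, anpepb, rbp2a and mogat2 lie below the lower dotted line, and agr2, cdx1b, vil1l, AMN and alpi lie between the dotted lines.

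Villin, the actin bundler of the microvillus core, was represented by vil1l (chromosome 9, 45978150 to 46020886), with 89.9 FPKM in the wild-type pool and 74.2 FPKM in the mutant pool (1.21-fold lower). Intestinal alkaline phosphatase, which detoxifies bacterial lipopolysaccharide, was represented by alpi (chromosome 22, 41808074 to 41823295), at 6.53 and 7.30 FPKM (1.1-fold higher). Its relative zgc:110409, matched to alpi.2, was at 8.14 and 6.58 FPKM (1.21-fold lower). Set against vil1l within each library, SI had a ratio of 0.305 in wild type and 0.161 in the mutant. The ratio was 0.185 and 0.125 for anpepb, 3.66 and 2.58 for rbp2a and 0.279 and 0.211 for mogat2. The members cubn, cdx1b and agr2, the last 2 of them higher in the mutant, were not set against vil1l. In the mutant vil1l was 1.21-fold lower and these 4 members were each at least 1.5-fold lower. Their lower ratios to vil1l follow from those levels and are not a further result. Whether these ratios exceed the spread between pools was not tested.

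The order of the members by level was nearly the same in both libraries. From the top it ran rbp2a, agr2, SI, mogat2, anpepb, cdx1b and cubn in wild type, and in the mutant SI and mogat2 exchanged places. The ratio of SI to mogat2 was 1.09 in wild type and 0.762 in the mutant. The ratio of agr2 to rbp2a was 0.258 and 0.574. The sum over the 7 members was 486 FPKM in the wild-type pool and 341 FPKM in the mutant pool, 70.1% of the former, and rbp2a makes up most of it.

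Other enzymes of the brush border were examined through a list of hydrolases, counted without SI and anpepb. This list and the others were chosen with earlier results of these data known. Their counts are therefore not independent support for the members, and they cover only genes that reached a mean of 1 FPKM. Among all genes at that level, 1.68% were at least 1.5-fold lower and 0.439% at least 2-fold lower. Of 18 hydrolase genes at that level, 6 were at least 1.5-fold lower, 4 of these at least 2-fold, and 0 were 1.5-fold higher. Their median log2 difference was -0.29. The lowest was the meprin gene mep1a.2, a metalloprotease of the brush border, at 13.3 and 5.06 FPKM (2.35-fold lower). Next, named after their values were seen, came xpnpep2, an aminopeptidase that cuts before proline, at 4.63 and 1.58 FPKM, mep1b at 2.54 and 0.641 FPKM and mep1a.1 at 17.7 and 8.20 FPKM. The highest difference was that of alpi.

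Carriers of nutrients had a median log2 difference of -0.45 over 22 genes, of which 5 were at least 1.5-fold lower, 0 at least 1.5-fold higher and 20 below 0. The peptide transporter gene slc15a1b was at 35.03 and 17.82 FPKM (1.91-fold lower), and slc6a19b, a neutral amino acid transporter gene, at 24.3 and 12.4 FPKM (1.88-fold lower). The dicarboxylate transporter gene slc13a2, the most abundant, was at 50.7 and 40.0 FPKM, within 1.5-fold. The phosphate transporter genes slc34a2b, at 8.88 and 11.7 FPKM, and slc20a1b, at 45.4 and 52.9 FPKM, were the 2 above 0.

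In lipid absorption, counted without mogat2, 8 of 21 genes were at least 1.5-fold lower and 0 at least 1.5-fold higher, with a median log2 difference of -0.38. The ileal bile acid binding protein gene fabp6 was at 330 and 146 FPKM and the acyl-CoA synthetase gene acsl5 at 39.9 and 21.9 FPKM (1.78-fold lower). The most abundant, the apolipoprotein gene apoa1, was nearly level at 1664 and 1755 FPKM. Genes of this list and of the hydrolase and carrier lists are not all confined to enterocytes. Their values are thus not those of enterocytes alone. The joined locus of fabp1b.1 and fabp1b.2, for fatty acid binding proteins, was at 1653 and 1098 FPKM. The highest difference was that of zgc:112992, matched to apoa4a as a synonym, at 6.95 and 8.14 FPKM. The joined locus of apoa4, si:dkey-7f3.15 and zgc:194131, named after its value was seen, went the other way. It was at 910 and 525 FPKM (1.73-fold lower).

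Genes of microvillus structure and retinoid handling were counted in the same way. Of 15 structural genes 1 was at least 1.5-fold lower, the scaffold gene pdzk1 at 39.1 and 22.6 FPKM, and their median log2 difference was -0.27. The structural list still holds vil1l, whose own value is this median. Likewise alpi stays among the hydrolases and AMN in the endocytosis list below, so these lists are not independent of the listed genes. The intermicrovillar cadherin gene CDHR2 (2 of 2) was at 4.03 and 2.38 FPKM (1.49-fold lower). The highest structural difference was that of zgc:64042, matched to myo1eb, at 7.43 and 9.62 FPKM. The most abundant row was the joined locus of atp5f1 and eps8l3, at 420 and 399 FPKM. Only eps8l3 was matched to the structural list, and its share of this joined value is not known. Among 16 retinoid genes other than rbp2a, 2 were at least 1.5-fold lower and 0 higher, with a median of 0.004. They were the retinol dehydrogenase genes dhrs9, at 38.7 and 22.4 FPKM, and rdh1, at 27.7 and 17.6 FPKM, the second named after its value was seen. The retinoic acid binding protein gene crabp1b, at 12.5 and 16.1 FPKM, was the highest.

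In the endocytosis list 3 of 14 genes that reached a mean of 1 FPKM were at least 1.5-fold lower and 0 higher. Their median log2 difference was -0.23. The 3 lower genes encode lysosomal proteases. The cathepsin genes ctsl.1 and ctsbb were at 114 and 44.7 FPKM and at 37.5 and 16.0 FPKM, and the legumain gene lgmn was at 256 and 157 FPKM. Their relative ctsl1a, the most abundant of the list, was level at 610 and 619 FPKM, and si:ch211-117m20.5, matched to the transcobalamin gene tcnbb, was the highest at 116 and 167 FPKM. Its neighbour on chromosome 5, si:dkey-252h13.5, matched to tcnba and named after its value was seen, went the other way, at 176 and 125 FPKM. How reads were divided between these 2 genes is not known. Below a mean of 1 FPKM lay 3 further genes of this list. Of these cubn and lrp2, the latter matched to lrp2a, were lower but within 1.5-fold. The cathepsin gene ctsl1b, matched to ctslb and named after its value was seen, was at 0.200 and 1.59 FPKM (2.16-fold higher). Cathepsins are made in many tissues, so the cathepsin values are not those of enterocytes alone.

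**Figure D4:**
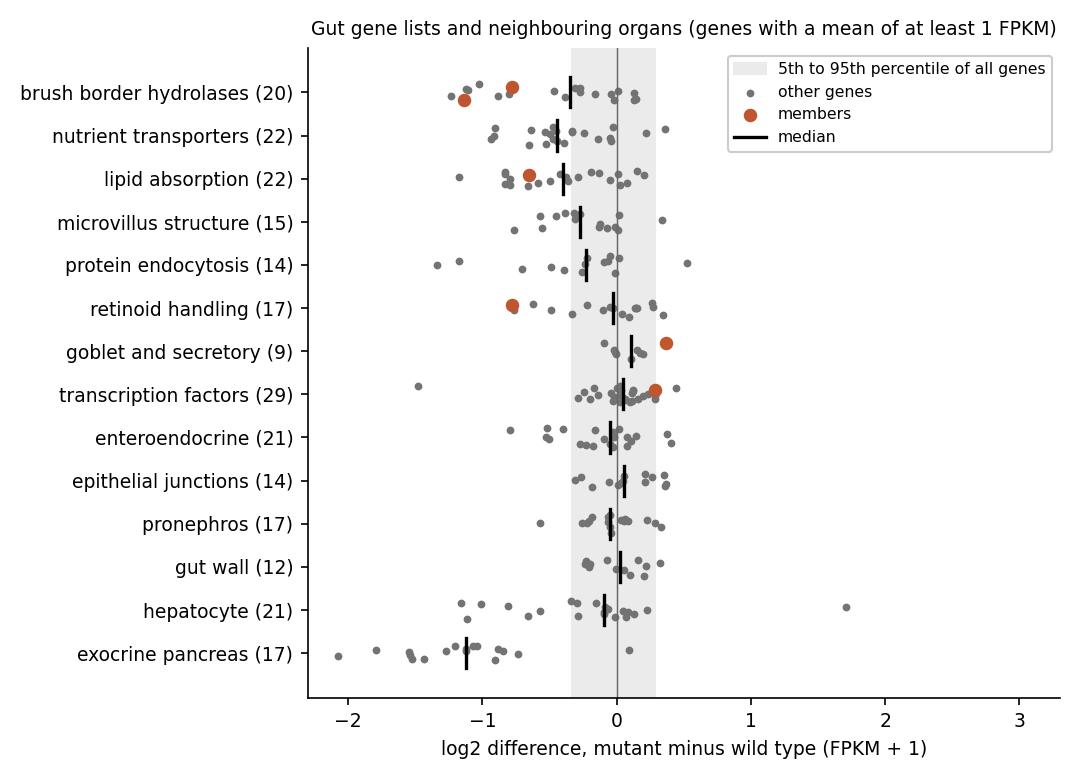
Log2 difference of mutant minus wild type (FPKM + 1) for each gene that reached a mean of 1 FPKM in 14 lists (number of genes in brackets), with members coloured, other genes in grey and a bar at each median. The grey band spans the 5th to 95th percentile of all genes, -0.33 to 0.28. The medians of nutrient transporters and lipid absorption lie left of the band, that of the hydrolases lies at its edge (-0.35, or -0.29 without SI and anpepb), and the exocrine pancreas lies furthest left, while goblet, transcription factor, junction, pronephros and gut wall medians lie near 0.

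The medians of lists for other cells of the gut epithelium, and for its regulators, lay near 0. Not all of the listed genes are confined to the gut, so these medians are not those of gut cells alone. Of 28 transcription factor genes of endoderm and gut other than cdx1b, 1 was at least 1.5-fold lower and 0 higher, with a median log2 difference of 0.04. That gene was nr5a5, at 9.05 and 2.61 FPKM. The next lowest, klf5a, was at 7.59 and 6.04 FPKM, the highest, gata4, at 1.28 and 2.09 FPKM, and the most abundant, tcf7l2 and sox9a, at 32.8 and 35.7 and at 16.9 and 18.2 FPKM. Among 8 goblet and secretory genes other than agr2, 0 passed 1.5-fold, with a median of 0.05. The lowest difference was that of ST6GALNAC1 (2 of 2), at 7.554 and 6.997 FPKM, and the list includes xbp1 at 161 and 174 FPKM and galnt7 at 36.2 and 35.7 FPKM. Of 21 listed mucin and secretory entries 8 matched no row, the mucin genes among them.

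Among 21 enteroendocrine genes 1 was at least 1.5-fold lower, si:ch211-260m19.8, matched to the motilin-like gene mlnl, at 6.298 and 3.1999 FPKM. Its span is shared with 3 other gene models, and its p-value in the authors' deposited table was 0.653. With a pseudocount of 5 its log2 difference was -0.46, and it no longer passed. The median log2 difference of the 21 genes was -0.05, with 14 below 0 and 7 above. Further hormone genes were named after their values were seen. Of these insl5a was at 4.75 and 3.01 FPKM, insl5b at 1.64 and 1.18 FPKM and vip at 9.14 and 6.71 FPKM. In the other direction pyya was at 13.3 and 14.4 FPKM and ghrl at 2.24 and 2.41 FPKM. The incretin gene gip was at 4.39 and 2.74 FPKM, sst1.1 at 24.97 and 17.29 FPKM, neurod at 42.7 and 47.3 FPKM and the glucagon gene gcga, the highest, at 12.9 and 17.4 FPKM. Several of these genes are also expressed in islets or brain. Among 14 epithelial junction and keratin genes, 0 passed 1.5-fold, and the median was 0.05, with 4 below 0 and 10 above. That list joins intestinal genes with others not confined to enterocytes, so its median is not that of gut epithelium alone. The 4 below 0 were zgc:109868, cldn15la, cdh17 and cldn15a, the last named after its value was seen. The keratin zgc:109868 (krt92) was at 421 and 340 FPKM and the intestinal claudin gene cldn15la at 97.9 and 81.5 FPKM. Above 0, cldn7a was at 17.5 and 22.8 FPKM and the skin keratin krt4 at 4384 and 5608 FPKM. Among 12 genes of gut wall smooth muscle and enteric neurons that reached a mean of 1 FPKM, 0 passed 1.5-fold, and the median was 0.03. They include desma at 160 and 152 FPKM, acta2 at 135 and 115 FPKM, desmb at 11.5 and 9.68 FPKM and nos1 at 1.38 and 1.98 FPKM. Below that mean lay 4 further genes of this list. Of these cnn1a, named after its value was seen, was at 1.40 and 0.380 FPKM (1.74-fold lower), and the rest were within 1.5-fold.

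Genes of the neighbouring exocrine pancreas were lower as well. Of 17 exocrine pancreas genes 16 were at least 1.5-fold lower, with a median log2 difference of -1.12 and a summed level of 15474 FPKM in the wild-type pool and 7032 FPKM in the mutant pool. Among them pla2g1b was at 19.8 and 3.95 FPKM, and the factor gene ptf1a, at 1.76 and 1.93 FPKM, was the single gene above 0. Of 21 hepatocyte genes 5 were at least 1.5-fold lower and 1 higher, with a median of -0.10 and sums of 9232 and 8941 FPKM. The lowest was fabp10a, at 811 and 363 FPKM, and the higher gene, serpina1, had a listed value of 0 in wild type and of 2.27 FPKM in mutant larvae. A joined locus of serpina1 and serpina1l at the same span is among the 5 lower ones, at 364 and 230 FPKM, so these rows may divide the reads of related copies. The part of these organs in the values of the members was not tested.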

How the data were processed

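Expression was measured in 1 pool of wild-type and 1 pool of lri12 mutant larvae. The deposited values were taken as FPKM, the unit of the Cuffdiff layout in the file headers; no label states it. CASAVA, Bowtie and build Zv9 were used, per the submitters' processing notes, which give no versions. How annotation, strand and multi-mapped reads were treated is not given in the sources used here. Where a p-value or q-value is quoted, it is the authors' deposited one.

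Of 40114 loci, 19 failed estimates and 8509 without a symbol were left out. Loci that share a symbol were summed, and a locus with joined symbols counted as 1 gene. A gene entered if its mean reached 1 FPKM, the pseudocount was 1, and limits of size were 1.5-fold and 2-fold. The log2 formula and the 2-fold counts were checked on wild-type values changed by known folds, which the formula returns by construction. That check does not cover the matching of lists, the summing of loci or the filter. Absolute depth is unknown. Among 1786 low loci the commonest log2 ratio was -0.15, which, read as equal numbers of reads, gives 1.11 mutant reads per wild-type read.

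The members and the 14 other lists were chosen with earlier results of these data known. Of 332 distinct entries 211 matched as written, 47 through RefSeq synonyms (assembly GRCz12tu, for names only), 21 by their letters alone and 53 matched none. Named genes were the members and, in each list, the 2 most abundant in wild type, the 2 lowest and the 1 highest by log2 difference, some of which are given only as counts. Others named are enterocyte markers, members' relatives, genes sharing a span or genes said to be chosen after their values were seen. Alternatives were pseudocounts of 0.1 and 5, the absence of a filter, a higher minimum mean of 5, centring on the median, the highest locus of each symbol and only loci marked as tested. An alternative chosen after seeing the data kept only unshared spans. A gene counted as unchanged on the same side of 1.5-fold and 2-fold, a median within 0.1 and a count within 1.5 times. Python 3.11.15, pandas 2.3.3 and numpy 2.4.6 were used.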

Additional observations from a re-analysis of the deposited data

How the results depend on the processing

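Of the 7 members, 5 kept their side of both fold limits under every alternative that gave them a value. With a pseudocount of 5, SI came to -0.94, under 2-fold, so that 0 members passed 2-fold, and mogat2 to -0.55, under 1.5-fold. The members' median, -0.72 over the 6 that entered, was -0.57 with that pseudocount and -0.25 over unshared spans, where anpepb and mogat2 drop out and 2 members stay at least 1.5-fold lower. With a pseudocount of 5 the list medians were -0.15 for microvillus structure, -0.20 for hydrolases, -0.28 for nutrient transporters and -0.29 for lipid absorption. Among other named genes that pseudocount took mep1a.2 (-0.86) and nr5a5 (-0.89) under 2-fold and si:ch211-260m19.8 (-0.46) and serpina1 (0.54) under 1.5-fold, and one of 0.1 took CDHR2 (2 of 2) (-0.74), slc5a12 (-0.69), gip (-0.66) and gata4 (0.67) past 1.5-fold. Without a filter the goblet median was -0.0075, and with a mean of at least 5 the structure median was -0.13. Among all genes, a pseudocount of 0.1 gave 255 higher and 488 lower by 1.5-fold and 134 lower by 2-fold. A pseudocount of 5 gave 78 and 146 by 1.5-fold and 22 and 40 by 2-fold. A mean of at least 5 gave 92 and 33 higher by the limits of 1.5-fold and 2-fold, and unshared spans gave 95 and 29. These settings shrink or widen low values, or leave fewer genes, by construction. No paired analysis was possible because each genotype has 1 pool. Depth in reads is unknown, which limits cubn and cdx1b most: under the alternatives their log2 differences ran from -0.48 to -0.07 and from 0.13 to 0.40.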
